A study of Homo sapiens with 6 samples.

Results

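Mucins are large glycoproteins whose extracellular parts carry dense chains of O-linked sugars on serine and threonine. The present description covers 8 of them, MUC1, MUC4, MUC5AC, MUC5B, MUC13, MUC15, MUC16 and MUC20, taken by symbol from the 60504 gene rows measured in HCC827. Each symbol matched 1 protein-coding row. HCC827 is an established line of human lung adenocarcinoma with mutant EGFR, and every library came from this 1 line, with no genetic change named for either group. In the 2D group (3 libraries) cells grew as a monolayer in uncoated T-75 flasks seeded with 1000000 cells and passaged after 4 to 6 days. In the 3D group (3 libraries) 50000 cells were embedded in a droplet of Matrigel (basement membrane extract, growth factor reduced) and grew into tumoroids over 12 to 16 days. Passaging of tumoroids used dispase with a ROCK inhibitor, and whether the sequenced tumoroids had been passaged in this way is not stated. Both groups received RPMI 1640 medium with GlutaMAX, 10% fetal bovine serum, penicillin and streptomycin. Culture time, seeding number, passaging reagents, gel contact and geometry differed together between the groups, so their effects cannot be told apart. Whether replicates are independent cultures is not stated, so each p-value reflects the spread among these libraries alone, which may be technical. In bulk RNA, fewer cells making a transcript and less of it per cell cannot be told apart.

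Mucins fall into a secreted, gel-forming class and a membrane-bound class. The gel-forming mucins MUC5AC and MUC5B are stored in granules of airway goblet and gland cells and build the mucus gel that cilia move. MUC1, MUC4, MUC13, MUC15, MUC16 and MUC20 are transmembrane or membrane-associated proteins that line the cell surface, several of which are shed by proteases and bind receptor tyrosine kinases or galectins. In lung adenocarcinoma MUC1, MUC4, MUC5AC, MUC5B and MUC16 are familiar tumour antigens or histological markers.

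The repeat units of 5 of these genes are shown because they set how short reads can be placed on a mucin transcript. Each was read from the coding sequence of the longest coding transcript of the gene in GENCODE 29 on GRCh38, 5′ to 3′ on the coding strand. It is the most frequent in-frame stretch at the shortest period whose share of recurring codons came close to the highest share found. Capitals mark codons of serine or threonine, the residues to which mucin-type sugars are attached.
MUC1: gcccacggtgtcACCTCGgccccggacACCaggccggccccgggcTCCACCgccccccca
MUC4: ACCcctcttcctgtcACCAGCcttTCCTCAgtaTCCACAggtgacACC
MUC5AC: gctcctACAACCAGCACAACCTCT
MUC5B: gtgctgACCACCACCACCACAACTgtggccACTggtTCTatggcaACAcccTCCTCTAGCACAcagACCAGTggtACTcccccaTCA
MUC20: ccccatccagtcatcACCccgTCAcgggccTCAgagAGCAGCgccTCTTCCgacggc
The units were 60, 48, 24, 87 and 57 bases long in that order, and the reference transcripts held 19, 14, 15, 5 and 10 exact, non-overlapping copies of them. The MUC5AC unit was the densest, with 6 of its 8 codons for serine or threonine, against 5 of 20 in MUC1, 8 of 16 in MUC4, 17 of 29 in MUC5B and 7 of 19 in MUC20. In MUC13, MUC15 and MUC16 no whole unit recurred exactly by this search. For MUC16 the period found was 468 bases, and repeats that vary between copies were not counted. Over whole coding sequences the serine and threonine codons made up 23.3% in MUC15, 24.0% in MUC13, 26.1% in MUC1, 32.0% in MUC5B, 32.1% in MUC20, 35.2% in MUC5AC, 35.97% in MUC16 and 38.3% in MUC4. The alleles of HCC827 itself were not read.

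Reads of 75 nt were sequenced, so windows of 75 bases were used to ask how far each gene can be told from others. In MUC1, MUC4, MUC13 and MUC16 no window of any annotated transcript occurred in the transcripts of another gene on either strand. MUC5AC and MUC5B, which are paralogs, shared 17 windows with each other, 0.107% and 0.106% of their own. MUC5B also shared 312 windows with its antisense gene MUC5B-AS1, which made 329 in all (2.05%), and MUC15 shared 40 (1.10%) with ANO3. MUC20 was different: 1903 of its 3875 distinct windows (49.1%) occurred elsewhere, 1482 of them (38.2%) in the overlapping non-coding RNA listed as LINC00969 and 741 (19.1%) in the pseudogene MUC20P1. How reads were divided among MUC20, LINC00969 and MUC20P1 is therefore uncertain. Within a single transcript, 37.1% of the MUC1 windows, 23.8% of those of MUC5B, 18.1% of those of MUC20, 17.6% of those of MUC4 and 15.2% of those of MUC5AC occurred more than once, against 0.434% in MUC16 and 0% in MUC13.

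On GRCh38 the genes lie at 6 loci. MUC5AC (ENSG00000215182, chr11:1157953-1201138) and MUC5B (ENSG00000117983, chr11:1223066-1262172) stand one after the other on the plus strand, 21927 bases apart. MUC20 (ENSG00000176945, chr3:195720882-195741123, plus strand) and MUC4 (ENSG00000145113, chr3:195746765-195812277, minus strand) face each other tail to tail with 5641 bases between them. MUC13 (ENSG00000173702, chr3:124905442-124953819, minus strand), MUC1 (ENSG00000185499, chr1:155185824-155192916, minus strand) and MUC16 (ENSG00000181143, chr19:8848844-8981342, minus strand) stand apart from the other listed mucins. MUC15 (ENSG00000169550, chr11:26559033-26572233, minus strand) lies inside the span of ANO3 on the opposite strand. The longest coding transcripts ranged from 2842 nt in 3 exons for MUC20 to 43816 nt in 84 exons for MUC16.

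Levels were given as TPM, a share of all transcripts after correction for transcript length. Every library sums to the same total on this scale, so values are relative to the other genes. Sequencing depth cannot be read from TPM and is unknown, so levels carry no counting interval. Between 23908 and 26387 genes were listed above 0 per library, and 12.3% to 19.4% of the TPM was mitochondrial. Of 9 markers of a lung epithelial line all were tested, none rose, KRT7 fell and 8 were not called: EPCAM stood at 567 to 631 TPM, the lung lineage factor NKX2-1 at 58.9 to 79.9 TPM, and the keratin KRT7 at 698 ± 172 TPM in 3D and 1201 ± 31.4 TPM in 2D (limma, adjusted p = 0.0355). The 8 leukocyte markers summed to 47.7 to 88.5 TPM in 3D and 71.3 to 102 TPM in 2D, nearly all of it the lysosomal gene CD68 at 45.1 to 96.1 TPM. Of the 2 leukocyte markers tested, CD68 was not called and the MHC class II gene HLA-DRA fell from 4.31 ± 1.68 to 1.36 ± 0.344 TPM (limma, adjusted p = 0.0415), while PTPRC, which defines leukocytes, did not exceed 0.25 TPM. The fibroblast gene COL3A1 and the mesothelial gene WT1 were listed at 0 in all 6 libraries. The summed level of 8 fibroblast markers was 6.99 to 12.2 TPM in 3D and 2.10 to 2.96 TPM in 2D, with COL1A1 higher in 3D, and that of 7 mesothelial markers was 1.3 to 1.98 and 1.78 to 17.1 TPM. The part of these markers in the mucin differences was not tested.

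Among the listed mucins 1 rose and 2 fell in 3D, 4 did not pass the test and 1 was listed at 0 in every library. MUC13 was the member that rose, and MUC20 and MUC5AC were those that fell. The test was limma on log2(TPM + 1) over the 15042 genes whose mean reached 1 TPM, with Benjamini-Hochberg adjustment over all of them and a threshold of 0.05. Of all tested genes, 10.2% were called higher, 2.12% were called lower and 12.3% were called in either direction. The 3D and 2D libraries did not overlap in 6 of the 7 tested mucins, and in 36.7% of all tested genes. In 2 mucins the 3D libraries lay above and in 4 below, against 27.3% and 9.4% of all tested genes. Before adjustment, 6 of the 7 mucins and 31.4% of all tested genes had a limma p under 0.05. The median log2 fold change of the 7 mucins was -0.38, against 0.12 for all tested genes. The scale itself moves this reference point: with libraries scaled by median ratios the median gene stood at -0.0092, and the calls over all genes went from 1536 higher and 319 lower to 971 and 612. The sign of each listed mucin was the same under both scalings.

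**Figure D1:**
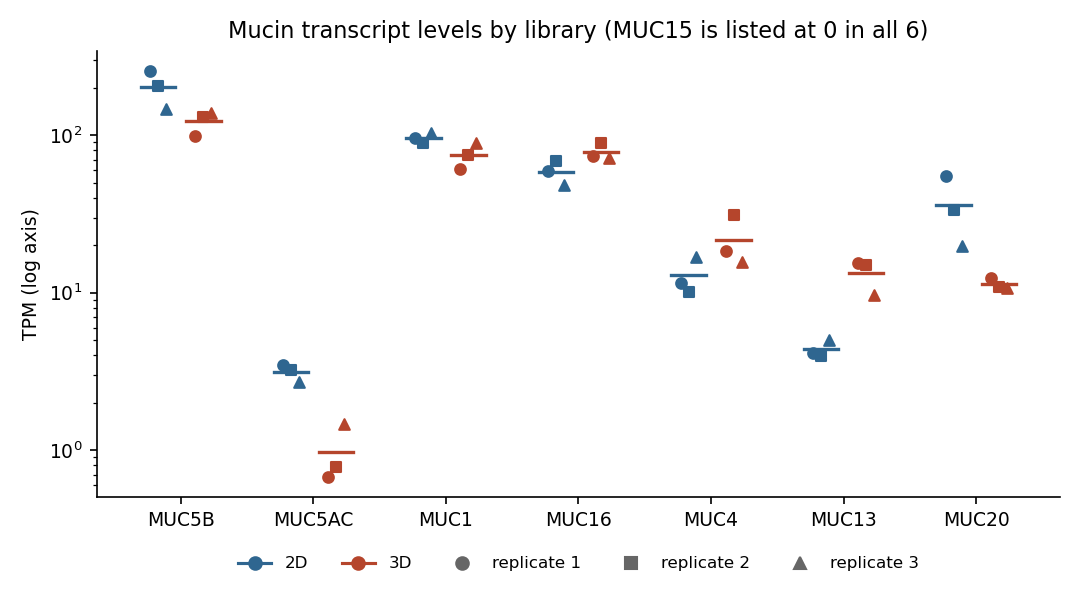
TPM (log axis) of 7 mucins in each library, with 2D in blue and 3D in red; symbols stand for replicate numbers and bars for group means of 3 libraries. The 2 colours do not overlap except in MUC4, and MUC15, listed at 0 throughout, is not drawn.

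MUC5B, the dominant gel-forming mucin of airway glands, was the most abundant listed mucin in both cultures. It stood at 98.9, 131 and 138 TPM in the 3D libraries and at 256, 206 and 147 TPM in the 2D libraries. Every 3D value lay below every 2D value, but 2D replicate 3 was much nearer to 3D than the other monolayer libraries were. The means were 123 ± 20.9 TPM in 3D and 203 ± 54.3 TPM in 2D (SD, n = 3 each). The log2 fold change of -0.70 (SE 0.23, 95% interval -1.22 to -0.17) did not pass the test (limma, adjusted p = 0.0819). It did pass without 2D replicate 3 (limma, -0.91, adjusted p = 0.0236), with median-ratio scaling (-0.85, adjusted p = 0.0443) and without both libraries numbered 3 (-1.0, adjusted p = 0.0113), with adjusted p up to 0.244 over the alternatives.

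MUC5AC, the gel-forming mucin that goblet cells of the airway surface make, was a minor transcript in both cultures. Its values were 0.68, 0.78 and 1.47 TPM in 3D and 3.50, 3.23 and 2.7 TPM in 2D. No 3D library reached the lowest monolayer library, and 3D replicate 3 was the highest of its group. MUC5AC fell to 0.977 ± 0.430 TPM in 3D against 3.14 ± 0.407 TPM in monolayers, a level 3.22-fold lower (log2 fold change -1.08 with SE 0.23, limma adjusted p = 0.0257). The 3D mean lay just under the filter of 1 TPM, so MUC5AC was tested through its 2D values. Because its level is close to the pseudocount of 1, the log2 value depended on that choice, being -1.65 with 0.1 and -0.45 with 5. The call was lost without 3D replicate 1 or 2, without 2D replicate 1 or 2, and with no filter on low values (limma, adjusted p 0.0118 to 0.0995 over the alternatives).

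The neighbours of this pair on chromosome 11 were read as well. MUC2, the gel-forming mucin of intestine next to MUC5AC, was at 0.01 TPM or less in 3D and at 0.02 to 0.16 TPM in 2D. MUC6, a gastric gel-forming mucin, was listed at 0 in all 6 libraries. TOLLIP, on the far side of MUC5B, stood at 17.9 to 24.6 TPM in 3D and 16.99 to 24.3 TPM in 2D, which overlap. The antisense gene MUC5B-AS1 was listed at 0 everywhere.

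MUC13, a membrane mucin best known from the gut surface, had 15.4, 15.0 and 9.69 TPM in the 3D libraries and 4.16, 3.95 and 5.04 TPM in the 2D libraries. The lowest 3D value, in replicate 3, was still well above the highest monolayer value, also in replicate 3. MUC13 rose from 4.38 ± 0.578 to 13.4 ± 3.20 TPM (SD, n = 3 each), which is 3.05-fold (log2 fold change 1.40 with SE 0.20 and 95% interval 0.92 to 1.87, limma adjusted p = 0.00861). It was called in each of the 19 alternatives run (limma, adjusted p 0.00171 to 0.046), with log2 fold changes from 0.96 to 1.68. On one side of the gene the integrin gene ITGB5 was at 37.9, 39.0 and 63.5 TPM in 3D and at 46.5, 37.0 and 43.1 TPM in 2D, which overlap. On the other side HEG1, itself a mucin-like protein, stayed under the filter at 0.57 to 1.75 TPM in 3D and 0.07 to 0.84 TPM in 2D.

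MUC20, a membrane-associated mucin that has been linked to the receptor MET, had the most negative log2 fold change of the listed mucins, although the ratio of TPM means was similar in MUC5AC. It had 12.4, 10.9 and 10.8 TPM in 3D and 55.0, 33.7 and 19.8 TPM in 2D. The 3D libraries were nearly equal, whereas the monolayer libraries were spread widely, with replicate 3 lowest. MUC20 fell from 36.2 ± 17.7 to 11.3 ± 0.902 TPM, 3.19-fold lower (log2 fold change -1.48 with SE 0.32 and 95% interval -2.23 to -0.73, limma adjusted p = 0.0282). The call was lost without any 1 of the 3D libraries, without 2D replicate 2 and with no filter on low values (limma, adjusted p 0.00434 to 0.105 over the alternatives).

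Both genes that share sequence with MUC20 were examined beside it. The overlapping RNA LINC00969 had 27.6, 35.5 and 26.4 TPM in 3D and 24.8, 26.9 and 28.6 TPM in 2D, which overlap (log2 fold change 0.14 with SE 0.15, limma adjusted p = 0.553), and its sign turned with median-ratio scaling (-0.0069). MUC20P1 had 1.81, 4.42 and 1.91 TPM in 3D and 5.58, 4.51 and 3.25 TPM in 2D, again with overlap (log2 fold change -0.60 with SE 0.30, limma adjusted p = 0.219). Whether reads of one of the 3 genes were counted for another was not tested.

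MUC4, a membrane mucin that binds ERBB2 and whose gene faces that of MUC20, differed in the other direction without passing the test. Its values were 18.5, 31.1 and 15.7 TPM in 3D and 11.6, 10.1 and 16.98 TPM in 2D. The groups overlapped, because 2D replicate 3 lay above 3D replicate 3. The means were 21.8 ± 8.17 and 12.9 ± 3.63 TPM (log2 fold change 0.69 with SE 0.28, limma adjusted p = 0.143). Without both libraries numbered 3 the difference passed (limma, 1.08, adjusted p = 0.0233), and adjusted p reached 0.358 over the alternatives.

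MUC1, the cell-surface mucin found on most secretory epithelia, was among the 3 most abundant members in both cultures. It had 60.7, 74.6 and 89.5 TPM in 3D and 96.5, 89.9 and 104 TPM in 2D. The highest 3D library lay just under the lowest monolayer library, so the groups did not overlap. The means were 74.9 ± 14.4 and 96.7 ± 6.90 TPM (limma log2 fold change -0.38, SE 0.16, 95% interval -0.76 to 0.0015), and the difference did not pass the test (limma, adjusted p = 0.161, 0.0597 to 0.432 over the alternatives). TRIM46 on one side of the gene did not exceed 1.11 TPM in any library. On the other side lies RP11-263K19.4, annotated as an antisense gene, 2087 bases from MUC1 and not overlapping it. RP11-263K19.4 had 6.76, 3.87 and 2.94 TPM in 3D and 1.66, 1.71 and 1.53 TPM in 2D, and it rose (log2 fold change 1.01 with SE 0.27, limma adjusted p = 0.0489). That call lay close to the threshold and was not refitted under the alternatives.

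MUC16, which carries the tumour antigen CA125, had 74.1, 89.3 and 71.5 TPM in 3D and 59.2, 68.7 and 48.5 TPM in 2D. All 3D values lay above the monolayer values, by a narrow margin between 3D replicate 3 and 2D replicate 2. The means were 78.3 ± 9.61 and 58.8 ± 10.1 TPM (limma log2 fold change 0.41, SE 0.17, 95% interval 0.03 to 0.80), and the difference did not pass the test (limma, adjusted p = 0.136, 0.0976 to 0.352 over the alternatives). MSLN, the mesothelial surface protein that binds MUC16, was at 0.11 TPM or less in all libraries.

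MUC15, a small membrane mucin, was listed at 0 in all 6 libraries and could not be tested. With values rounded to 2 decimals and no counts, no limit on its level can be given. ANO3, the gene whose span holds MUC15, did not exceed 0.09 TPM.

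**Figure D2:**
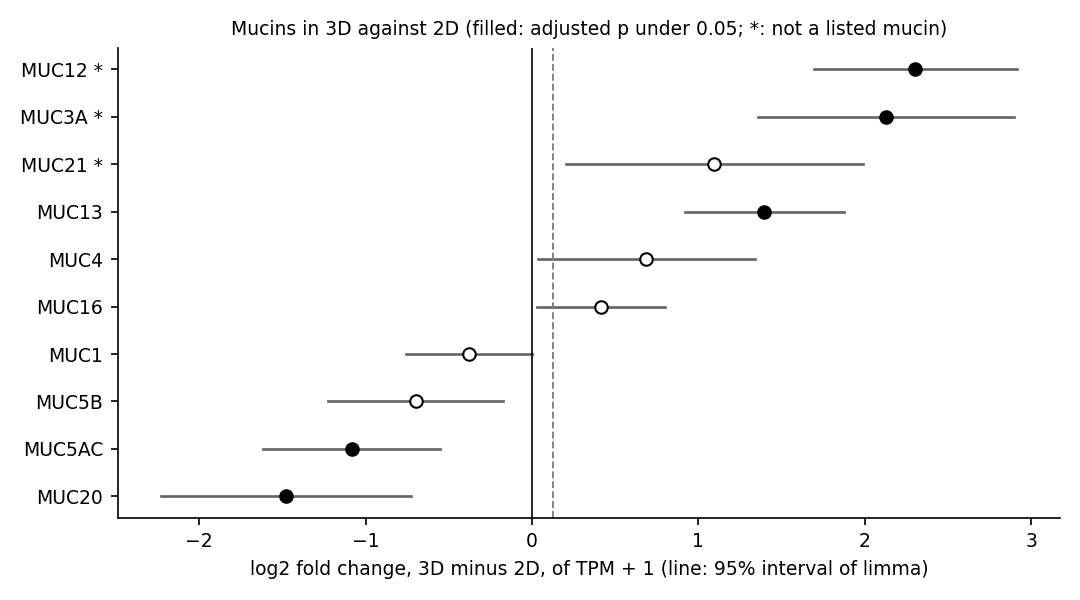
Log2 fold change of TPM + 1, 3D minus 2D, for the 7 tested listed mucins and for MUC21, MUC3A and MUC12 (starred), with 95% intervals from limma on 3 libraries per group; filled points passed the adjusted threshold and the dashed line is the median of all tested genes, 0.12. MUC20 and MUC5AC are the filled points on the left, and MUC13, MUC3A and MUC12 those on the right.

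The order of the listed mucins by level differed between the cultures. In 3D the means ran MUC5B, MUC16, MUC1, MUC4, MUC13, MUC20 and MUC5AC from the highest to the lowest. The ranges of MUC16 and MUC1 overlapped there, as did those of MUC13 and MUC20, so these neighbours were not apart beyond their spread. In 2D the order was MUC5B, MUC1, MUC16, MUC20, MUC4, MUC13 and MUC5AC, and the ranges of MUC16 and MUC20 overlapped. MUC20 thus stood above MUC4 and MUC13 in every monolayer library and below MUC4 in every 3D library.

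Summed over the 8 genes, mucin transcripts took 281 to 353 TPM in 3D and 344 to 486 TPM in 2D, which overlap. The gel-forming pair made up 35.5% to 41.4% of this sum in 3D and 43.6% to 53.4% in 2D. The membrane-bound members together stood at 181 to 221 TPM in 3D and 194 to 226 TPM in 2D. Within all listed mucin transcripts, MUC16 took 21.2% to 26.4% in 3D and 12.2% to 16.5% in 2D, MUC13 took 2.88% to 5.50% against 0.857% to 1.47%, and MUC20 took 3.08% to 4.40% against 5.76% to 11.3%. The MUC1 shares overlapped, at 21.1% to 26.6% and 19.9% to 30.1%. These shares restate the levels above and were not tested.

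**Figure D3:**
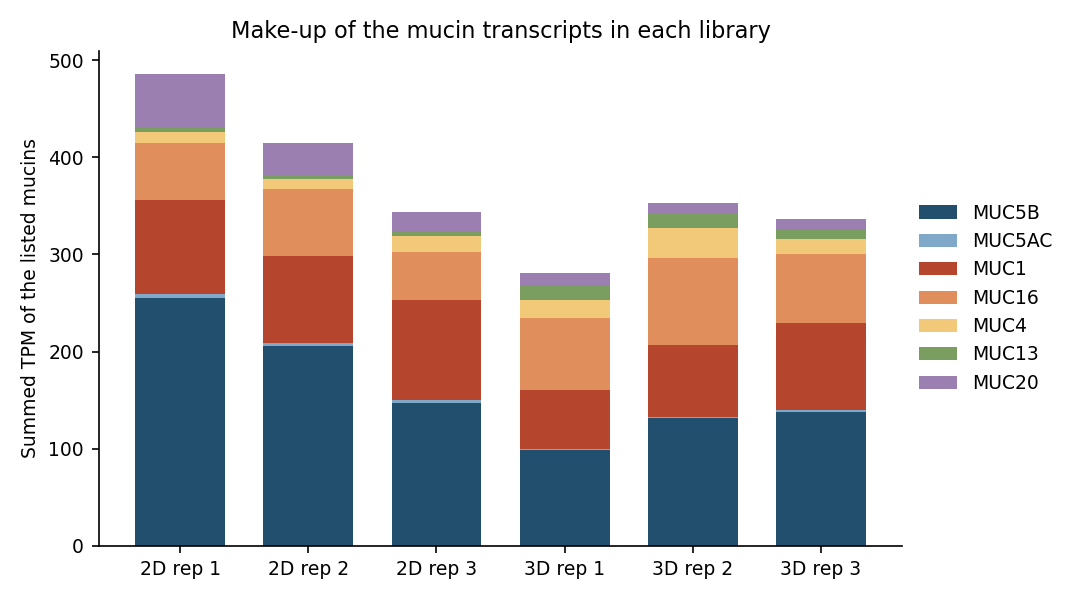
Summed TPM of the listed mucins in each library, stacked by gene. MUC5B is the largest block in all 6 libraries, and 2D replicate 3, at 344 TPM, has a sum within the range of the 3D libraries.

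Other mucins and mucin-like proteins were read from a list of 20. Of the 9 tested, 2 rose, 7 were not called and none fell, with a median log2 fold change of 0.46, beside 10.2% of all tested genes called higher, 2.12% called lower and a median of 0.12; 11 were under the filter. MUC3A shared 2.50% and MUC12 1.08% of its 75-base windows with another gene, and 55.2% of the MUC12 windows recurred within its own transcript. Both that rose were membrane mucins of the gut surface with adjacent genes on chromosome 7, 1276 bases apart on the plus strand. MUC3A (chr7:100949555-100968346) had 10.3, 14.1 and 6.66 TPM in 3D and 2.50, 1.57 and 0.73 TPM in 2D (log2 fold change 2.13 with SE 0.33, limma adjusted p = 0.0104), a call lost without 3D replicate 1 (limma, adjusted p = 0.0506, the highest of its alternatives, the lowest being 0.00326). MUC12 (chr7:100969623-101018949) had 5.48, 4.53 and 2.77 TPM in 3D and was listed at 0, 0.12 and 0 TPM in 2D (log2 fold change 2.3 with SE 0.26, limma adjusted p = 0.00334). MUC12 passed the filter only through its 3D values, so a difference was built into its being tested, and its log2 value was 5.01 with a pseudocount of 0.1 and 0.87 with 5. That of MUC3A was 1.20 with 5. MUC17, which follows MUC12 in the same cluster, was at 0.16 TPM or less in all libraries. MUC21, a membrane mucin of squamous and lung epithelium, had 4.05, 5.11 and 1.81 TPM in 3D and 2.00, 1.16 and 0.37 TPM in 2D and did not pass (limma, adjusted p = 0.101), but did with the replicate number as a block (0.0353), with 3D replicate 3 left out (0.0471) and with both libraries numbered 3 left out (limma, adjusted p = 0.0251, the alternatives reaching 0.286).

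All 3 mucins that rose, MUC13, MUC3A and MUC12, have a promoter in the RefSeq table on GRCh38.p14, so their sequences are shown. Each runs from 250 bases before to 50 after the RefSeq start, 5′ to 3′ on the strand of the gene. For MUC13 this start lies downstream of the outer edge of the GENCODE gene given above, and both RefSeq windows of MUC16 lie upstream of the GENCODE span of that gene. Capitals mark matches, on either strand, to AP-1 (TGANTCA), STAT (TTCNNNGAA), the GC box (GGGCGG), the forkhead core (TGTTTAC) and the hypoxia response core (ACGTG), which is also part of the E-box CACGTG.
MUC13 (chr3:124934702-124935001, minus strand): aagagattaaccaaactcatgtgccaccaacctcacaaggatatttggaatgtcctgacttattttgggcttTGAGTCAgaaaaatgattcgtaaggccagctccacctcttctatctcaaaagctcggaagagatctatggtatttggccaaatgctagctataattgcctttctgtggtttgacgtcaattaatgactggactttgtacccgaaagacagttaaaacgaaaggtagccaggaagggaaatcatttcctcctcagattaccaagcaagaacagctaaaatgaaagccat
MUC3A (chr7:100949284-100949583, plus strand): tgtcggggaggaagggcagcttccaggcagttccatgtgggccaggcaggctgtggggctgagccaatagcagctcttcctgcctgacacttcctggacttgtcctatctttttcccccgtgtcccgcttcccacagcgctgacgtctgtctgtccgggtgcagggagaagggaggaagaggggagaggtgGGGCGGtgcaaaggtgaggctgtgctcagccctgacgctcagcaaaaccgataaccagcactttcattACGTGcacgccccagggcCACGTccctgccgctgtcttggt
MUC12 (chr7:100969315-100969614, plus strand): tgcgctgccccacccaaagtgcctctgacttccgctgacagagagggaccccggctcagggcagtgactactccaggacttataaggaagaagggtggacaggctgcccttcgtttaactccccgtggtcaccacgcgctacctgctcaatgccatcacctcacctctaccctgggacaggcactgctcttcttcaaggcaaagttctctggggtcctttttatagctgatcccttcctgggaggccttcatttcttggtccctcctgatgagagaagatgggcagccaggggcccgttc
The MUC13 window held 1 AP-1 match, a motif found in 7.71% of 35116 promoter windows of the same length. MUC3A held 1 GC box, found in 45.0% of windows, and 2 hypoxia response cores, found in 21.4%. MUC12 held no match to any of the 5 motifs. No motif was shared by all 3. MUC20 and MUC5AC, which fell, had no promoter window to read, nor had MUC5B and MUC15. Among the listed mucins that did not pass the test, the MUC1 window held 4 GC boxes, the MUC4 window 1 STAT match, 1 GC box and 1 hypoxia response core, and the 2 MUC16 windows 1 GC box and 1 AP-1 match. STAT matches were found in 7.66% of windows and forkhead cores in 3.42%. A match describes letters in a window and says nothing of binding.

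Enzymes that build mucin-type O-glycans were called higher at a share near that of all tested genes. Of 28 tested members of a list of 30, 3 rose, 25 were not called and none fell, beside 10.2% of all tested genes called higher, and the list median of 0.15 was near the 0.12 of all genes. B3GNT6, which makes the core 3 structure, rose from 1.85 ± 0.906 to 13.3 ± 8.15 TPM, with 3D replicate 3 at 22.7 TPM and the others at 9.42 and 7.86 TPM (log2 fold change 2.24 with SE 0.41, limma adjusted p = 0.0166). GCNT1, which forms the core 2 branch, rose from 0.513 ± 0.191 to 2.83 ± 0.420 TPM, and ST3GAL1, which adds sialic acid to core 1, from 81.7 ± 7.95 to 130.4 ± 12.4 TPM (limma, adjusted p = 0.012 and 0.0217). GCNT1 had a 2D mean under the filter and was tested only because of its 3D level. The log2 value of B3GNT6 was 1.34 with a pseudocount of 5. The B3GNT6 call was lost without 3D replicate 1 and with no filter, and those of GCNT1 and ST3GAL1 when 3D replicate 1, 3D replicate 2 or 2D replicate 2 was left out (highest limma adjusted p of the alternatives 0.0597, 0.0646 and 0.087). None of the 11 tested GALNT transferases, which start the chains, passed the test.

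Regulators of goblet cells and proteins made with mucins were a mixed group. Of 28 tested members of 47 listed, 9 rose, 19 were not called and none fell, with a median of 0.35 against 0.12 over all tested genes, of which 10.2% were called higher. The 9 include CLCA2, at 1.26, 3.23 and 1.37 TPM in 3D and at 0.12 TPM or less in 2D. It passed the filter only through its 3D values, so a difference was built into its being tested. SOX9, a transcription factor of airway progenitors and glands, rose from 0.23 ± 0.0346 to 11.6 ± 1.301 TPM (log2 fold change 3.35 with SE 0.17, limma adjusted p = 0.000145). Its 2D level lay under the filter, so it too entered the test through 3D alone, and its log2 value was 5.15 with a pseudocount of 0.1 and 1.67 with 5. AGR3, a disulfide isomerase of ciliated and secretory cells, rose from 3.05 ± 2.16 to 32.5 ± 9.78 TPM, WFDC2, a secreted protease inhibitor, from 12.1 ± 0.465 to 65.6 ± 27.3 TPM, and KLF4, an epithelial transcription factor, from 22.4 ± 5.54 to 107 ± 39.4 TPM (limma, adjusted p = 0.00731, 0.00433 and 0.0066). Each of these 4 was called in all 19 alternatives (limma, adjusted p up to 0.038). SPDEF, the factor that drives goblet cell differentiation, went with MUC5AC in sign and did not pass the test: it had 16.3, 13.9 and 34.2 TPM in 3D and 54.5, 43.9 and 32.1 TPM in 2D (limma log2 fold change -1.06, adjusted p = 0.079). AGR2, which folds gel-forming mucins, spanned 611 to 1058 TPM in 3D and 322 to 954 TPM in 2D, and 2D replicate 3 was the lowest. SPDEF and AGR2 were chosen after their values were seen.

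The goblet cell markers as a set had 5 of 9 members over the filter, of which MUC5AC fell and none rose. Log2 fold changes were positive in AGR2, BPIFB1 and FCGBP and negative in MUC5AC and SPDEF, with a median of 0.21. BPIFB1 had 0.57, 6.17 and 0.44 TPM in 3D and 0, 0.17 and 0 TPM in 2D. That gene was not called (limma, adjusted p = 0.19) and passed the filter only through its 3D values. TFF3 and CLCA1 were listed at 0 in all 6 libraries, and FCGBP, a mucus-associated protein, had 3.11 to 6.80 TPM in 3D and 0.98 to 4.57 TPM in 2D. Their summed level was 639 to 1097 TPM in 3D and 358 to 1016 TPM in 2D, most of it AGR2. Of the ciliated cell markers 5 of 7 were tested, and TPPP3 alone rose; the sum was 50.7 to 75.1 TPM in 3D and 18.8 to 58.5 TPM in 2D. Of 7 basal cell markers 2 were tested and TP63 rose, with KRT5 at 0.11 TPM or less. The more abundant KRT15 had 64.9 to 69.1 TPM in 3D and 53.5 to 139.6 TPM in 2D. It was not called (limma log2 fold change -0.33, adjusted p = 0.488). Whether these markers bear on the mucin differences was likewise not tested.

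Genes of granule exocytosis carry stored mucin to the surface. Of 29 tested members of 33, 4 rose, 25 were not called and none fell, with a median of 0.14, both the share and the median being near the 10.2% and 0.12 of all tested genes. MARCKS, which links granules to the actin cortex, rose from 69.2 ± 11.9 to 139.2 ± 9.14 TPM (log2 fold change 1.01 with SE 0.15, limma adjusted p = 0.00921), a call lost without 3D replicate 1 (limma, adjusted p = 0.0531, the highest of its alternatives, the lowest being 0.00526). EXPH5, a RAB27 effector, rose from 4.01 ± 0.07 to 8.85 ± 1.78 TPM, and the calcium sensor SYT1 from 8.77 ± 1.596 to 17.6 ± 3.48 TPM (limma, adjusted p = 0.0169 and 0.0239). With 3D replicate 1 or 2 or 2D replicate 2 left out EXPH5 and SYT1 lost the call, as they did with no filter, and EXPH5 also without 2D replicate 1 (highest limma adjusted p of the alternatives 0.0759 and 0.0913). SYT2, the granule sensor of airway goblet cells, was at 0.06 TPM or less.

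Partners and sheddases of membrane mucins act at the cell surface. Of 25 tested members of 28, 6 rose, 19 were not called and none fell, with a median of 0.25, where all tested genes had 10.2% called higher and a median of 0.12. ICAM1, the adhesion molecule that binds MUC1, rose from 66.6 ± 9.52 to 253 ± 60.7 TPM (log2 fold change 1.89 with SE 0.20, limma adjusted p = 0.00239) and was called in all 19 alternatives (limma, adjusted p up to 0.0166). The protease MMP14, which can shed MUC1, rose from 0.40 ± 0.10 to 2.11 ± 0.352 TPM, ADAM17, another MUC1 sheddase, from 19.9 ± 4.14 to 33.3 ± 3.97 TPM, and SOS1, a RAS exchange factor recruited through GRB2, from 7.44 ± 0.734 to 13.9 ± 2.87 TPM (limma, adjusted p = 0.019, 0.0377 and 0.0274). MMP14 reached the filter only by its 3D values, and its log2 value was 2.15 with a pseudocount of 0.1 and 0.40 with 5. Leaving out replicate 1 or replicate 2 of either culture ended the call of each of these 3, ADAM17 also under median-ratio scaling and quantile normalization, without the 50 most abundant genes, with no filter, with no trend and with the replicate block, and SOS1 also under quantile normalization and with no filter (highest limma adjusted p of the alternatives 0.0868, 0.137 and 0.101). The receptors to which mucins bind did not pass: MET, the partner named for MUC20, had 171 to 198 TPM in 3D and 173 to 214 TPM in 2D, and ERBB2, that of MUC4, 60.6 to 86.5 and 65.1 to 90.6 TPM.

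**Figure D4:**
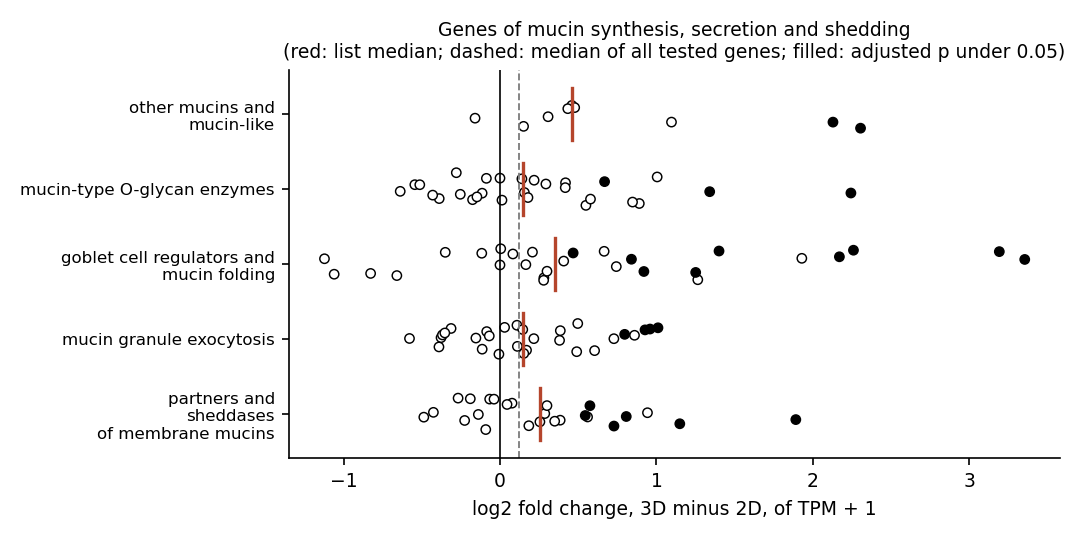
Log2 fold change of TPM + 1, 3D minus 2D, of each tested gene in 5 lists around mucins; red bars are list medians, the dashed line is the median of all tested genes (0.12), and filled points passed the adjusted threshold. All filled points lie to the right of 0.

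Likeness of pattern was described by Pearson r on log2(TPM + 1) over the 6 libraries, which form 2 culture groups, among protein-coding genes averaging 10 TPM or more. The closest genes to MUC13 were PPP4R3A (r = 0.999; 82.99 TPM in 3D and 39.7 in 2D on average) and KIAA0895 (r = 0.999), and 433 of 8074 candidates exceeded 0.95. For MUC5AC they were TAF10 and CEBPZOS (r of 1.00 and 0.999), with 153 candidates over 0.95. HTATIP2 and CBSL were closest to MUC20 (both r = 0.996, with 98 over 0.95), IFI27L1 to MUC5B (0.996), ITGA3 and EPS8L2 to MUC1 (0.997 and 0.996), ZSCAN30 and PDS5A to MUC4 (0.994 and 0.992), and RTFDC1 and PMEPA1 to MUC16 (0.990 and 0.981). Candidates over 0.95 numbered 72 for MUC4, 57 for MUC5B, 53 for MUC1 and 32 for MUC16, of 8073 for each. The r values given are the highest among all candidates, over 6 points in 2 groups, and name no relation. ITGA3, an integrin chain that binds laminin, shared with MUC1 the lowest value in 3D replicate 1, at 166 TPM, and the highest in 2D replicate 3, at 314 TPM.

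**Figure D5:**
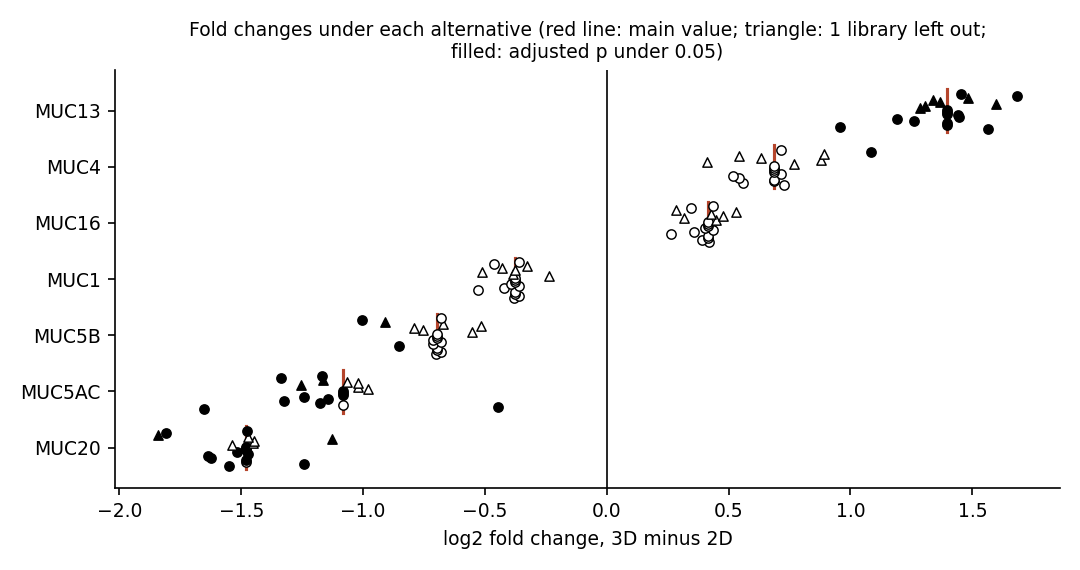
Log2 fold change, 3D minus 2D, of the 7 tested listed mucins under each alternative; the red line is the main value, triangles leave out 1 library and filled symbols passed the adjusted threshold. MUC13 is filled throughout, MUC1 and MUC16 are open throughout, and no symbol changes side of 0.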

How the data were processed

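TPM values of each gene in 6 HCC827 libraries were used as the authors deposited them, with 2 decimals. Per the labels' protocols, DNase-treated RNA with an integrity number above 9 was poly(A)-selected, made into directional libraries and sequenced as 75 nt single-end reads, which were processed in BaseSpace. The submitters' processing notes name RSEM 1.3.1, STAR 2.7.0d, cutadapt 2.3 and the build hg38, with no role or order. Annotation release and strand setting, not given in the sources used here, leave overlapping and antisense genes uncertain. Depth per library is unknown.

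Groups came from sample titles. Log2(TPM + 1) of the 15042 genes whose mean reached 1 TPM was fitted with limma 3.58.1 (eBayes with trend, R 4.3.3), 3D against 2D, with two-sided p adjusted by Benjamini-Hochberg over all genes, after the script was tested on simulated data. An exact test of 3 against 3 cannot give p under 0.1. Members, lists and tests were chosen with earlier results of these data known. All listed mucins were named, with at most 4 called genes of a list in its commoner direction and 2 in the rarer one by size of change, the 2 closest genes by pattern, and genomic neighbours where measured; 2 genes that this rule names are not reported here. MUC21, MUC20P1, MSLN, MUC2, MUC6, MUC17, CLCA2, SYT2, MET, ERBB2 and marker genes were named after their values were seen. Gene models, repeats and windows came from GENCODE 29; promoters from RefSeq. Alternatives covered pseudocounts of 0.1 and 5, filters, scalings, eBayes options, a replicate block and each library left out; leaving out both libraries numbered 3 and protein-coding nuclear genes only were added after seeing the data. Figures used matplotlib 3.10.9 in Python 3.11.15.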

Additional observations from a re-analysis of the deposited data

How the results depend on the processing

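No listed mucin changed sign under any of the 19 alternatives (18 for MUC5AC, which fell under the filter at 5 TPM). MUC13 was the only listed mucin called higher except without both libraries numbered 3, where MUC4 made it 2. The number called lower was 0 with no filter on low values, 1 with the filter at 5 TPM and 0 to 3 with 1 library left out; the number called higher was then 1 to 1. Over all genes, calls higher and lower in 3D numbered 729 and 86 with no filter, 971 and 612 with median-ratio scaling, 869 and 576 with quantile normalization, and 2464 and 1356 without both libraries numbered 3. With 1 library left out they ranged from 367 to 1607 and from 29 to 563. In the main comparison they numbered 1536 and 319, so 82.8% were higher, against 61.3% with median ratios and 60.1% with quantile normalization. LINC00969 turned to -0.0069 with median ratios. The cause of these shifts in calls and sign was not tested. The replicate numbers are not tied to a shared batch by the labels, and deviations of same-numbered libraries correlated at 0.101, 0.0365 and 0.185, 3D replicate 1 being closer to 2D replicate 2 (0.127). With the replicate number as a block, 1479 genes were called higher and 395 lower, 1 listed mucin was higher and 2 were lower, and MUC21 gained and ADAM17 lost a call among the 27 genes refitted by name.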

Other observations

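Several genes around mucins set 2D replicate 3 apart from the other monolayer libraries, a pattern chosen after the values were seen and not tested. ST6GALNAC1, which makes the sialyl-Tn antigen on mucins, had 103, 72.5 and 8.50 TPM in 2D replicates 1, 2 and 3 and 22.8 to 29.9 TPM in 3D. GCNT3, the mucin-type core 2 and core 4 enzyme, had 76.3, 49.3 and 14.4 TPM in 2D and 63.2 to 80.7 TPM in 3D. The secreted lectin ZG16B had 112, 65.5 and 23.7 TPM in 2D and 61.4 to 84.2 TPM in 3D. In all 3 genes the third monolayer library lay below every 3D library, while the first lay within or above the 3D range. MUC20, MUC5B and MUC5AC were also lowest in that library within 2D, as was MUC16, whereas MUC1, MUC4 and MUC13 were highest there.

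The airway transporter of immunoglobulin PIGR had 85.3, 166 and 49.1 TPM in 3D and 44.7, 20.8 and 12.2 TPM in 2D and did not pass the test (log2 fold change 1.93 with SE 0.54, limma adjusted p = 0.0558), although no 3D library overlapped 2D. Intelectin ITLN1, a lectin made by goblet and mesothelial cells, had 16.6, 6.07 and 0.25 TPM in 2D and 0.06 to 0.92 TPM in 3D (limma, adjusted p = 0.192).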
